A study of Mus with 6 samples.

Results

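Voltage-gated sodium and calcium channels open when a cell membrane depolarizes. Sodium channels carry the upstroke of the action potential, and calcium channels turn depolarization into calcium entry, which drives transmitter release and firing patterns. Each channel has a large pore-forming subunit that sets its class. Auxiliary subunits set how many channels reach the membrane and how they gate: beta subunits for sodium channels, and alpha2delta, beta and gamma subunits for calcium channels. Several of the genes named for calcium channel gamma subunits encode TARPs, proteins that traffic and tune AMPA-type glutamate receptors. In brain these genes are known mainly from neurons, and several are also used by glia.

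The genes were all rows of the deposited table whose symbol begins with Scn, a number and a or b, or with Cacna, Cacnb or Cacng. The rule found 40 of 18887 genes, 14 for sodium channels and 26 for calcium channels and TARPs, and 35 of the 40 passed a filter on low values (a normalized count of at least 10 in at least 2 samples). All 40 matched a RefSeq gene of the mouse build GRCm38.p6. The libraries are RiboTag immunoprecipitates from whole mouse brain, in which a tagged ribosomal protein made in a chosen cell type is used to pull down ribosomes with their mRNA. Both groups carry this tag and are labelled microglia. The control group holds 2 samples with the genotype Ctr (titles MG_IP), and the other holds 4 samples with the genotype KO (titles IRKO_IP), taken here to mean that microglia lack insulin receptor, as the name and the series title imply. The sources used here do not give strain, age, sex or the driver of the tag and of the knockout. They also do not say whether a library came from 1 animal or from a pool, so each p-value reflects spread among these libraries and that spread may be technical.

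The libraries differ in more than the genotype. Recovered depth was 16883098 and 19010680 reads in control libraries and 13858978 to 14568773 in IRKO. Insr, which encodes the insulin receptor, gave 565 and 532 normalized counts in control libraries against 357, 366, 290.5 and 340 for IRKO (log2 change −0.70, limma adjusted p = 0.00211). All 20 astrocyte markers examined were lower in IRKO, and they summed to 1027030 and 813694 normalized counts in control libraries against 60930 to 70713. Of 30 homeostatic microglia markers 27 rose and 1 fell, with sums of 482477 and 471751 in control libraries against 532658 to 704916. Of 24 neuron markers 19 rose, with sums of 71920 and 97315 in control libraries against 126545 to 160768. Of 13 blood and liver transcripts 12 were lower in IRKO, with sums of 79776 and 239113 in control libraries against 2815 to 12529. The cerebellar lists were mixed: Gabra6, Cbln3, Pcp2 and Ppp1r17 read at most 5.84 normalized counts in any library, while of 6 tested granule cell genes 4 rose and 1 fell, and of 6 tested Purkinje cell genes 3 rose and 2 fell. Among those that rose, Neurod1 had a log2 change of 1.93 and Calb1 one of 1.33. Over all 14698 genes tested, 26.6% rose and 29% fell.

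Channel genes were higher in IRKO more often than lower on the deposited scale, and more often lower when libraries were scaled to neuron or microglia markers. At a limma adjusted p under 0.05, 23 of the 35 tested members rose and 2 fell (n = 2 against 4), where 26.6% of all 14698 genes tested rose and 29% fell. TMM scaling gave 23 and 2, and quantile normalization 23 and 3. With libraries scaled to an equal mean log2 of the 24 neuron markers, 1 member rose and 7 fell (3.1% and 58.6% of all genes), and scaled in the same way to the microglia markers, none rose and 20 fell (0.537% and 77.9% of all genes). On recovered reads edgeR called 23 higher and 2 lower (26.1% and 28.8% of all genes), and DESeq2 22 and 2 (26.2% and 28.2%). The median log2 change of the 35 was 0.73 as deposited, close to the 0.85 of the neuron markers and above the 0.0165 of all genes tested. It was −0.0894 in the neuron scaling, where the median of all genes was −0.81, and −0.64 in the microglia scaling, where that median was −1.36. In bulk precipitates, fewer cells of a type and less RNA per cell cannot be told apart, and other sources of a difference were not tested.

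For 26 of the 35 members the 4 IRKO values all lay above both controls, as they did for 32.8% of all genes tested, and for 3 they all lay below, as for 34.8%. Scn9a is among the 26, and it passed the filter on low values only through IRKO libraries. Values of 1 gene are compared only between libraries here, because normalized counts are not corrected for transcript length.

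**Figure D1:**
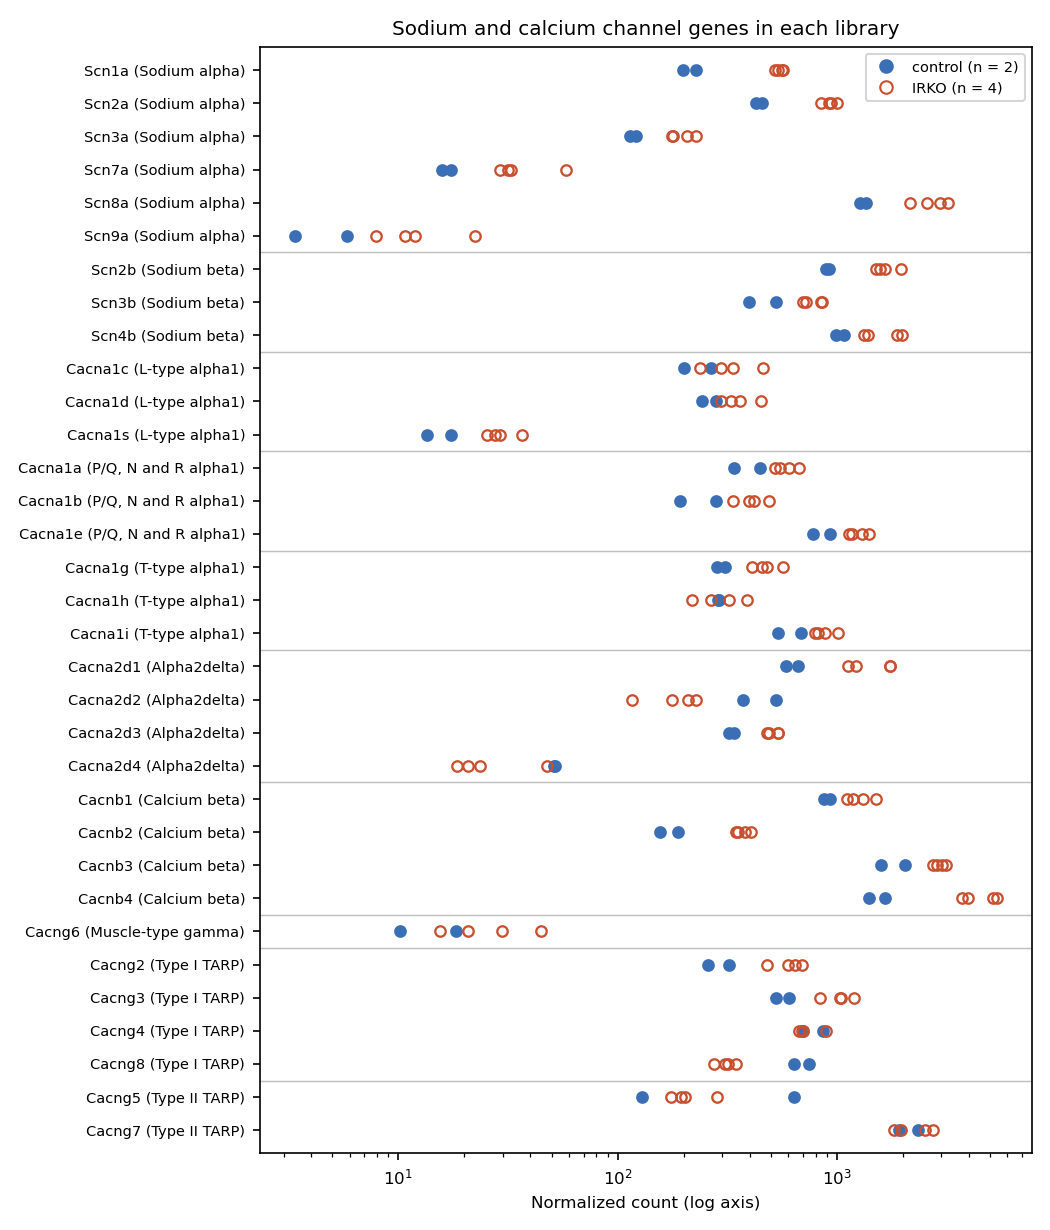
Normalized count (log axis) of 33 channel genes that passed the filter, 1 row a gene, grouped by subunit class. Filled points are the 2 control libraries and open points the 4 IRKO libraries; in most rows the open points lie to the right, and in the rows of Cacna2d2, Cacna2d4 and Cacng8 to the left, on the deposited scale; scaled to the microglia markers, 20 genes are lower and none higher.

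Pore-forming sodium channel genes showed the highest median change of the classes with more than 1 tested member. On the deposited scale 5 of 7 tested rose and none fell, with a median log2 change of 1.06; in the neuron scaling none passed the test and the median was 0.23, and in the microglia scaling it was −0.32. Scn1a, the sodium channel of fast-spiking interneurons whose loss causes epilepsy, read 227 and 199 normalized counts in the controls and 522, 541, 566 and 561 in IRKO. The groups were far apart and the 4 IRKO values close together, at a log2 change of 1.36 ± 0.121 (SE) and a limma adjusted p of 2.31e-05. In the neuron scaling Scn1a stood at 0.53 with a limma adjusted p of 0.051, and it passed there without control replicate 1 (0.0186) and without IRKO replicate 3 (0.044).

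Scn2a, the channel of the axon initial segment of excitatory neurons, read 457 and 430 in the controls and 843, 937, 920 and 1000.3 in IRKO. Its log2 change was 1.06 ± 0.115 (SE; limma adjusted p = 7.61e-05). Scn8a, the main channel of nodes of Ranvier, read 1274 and 1356 in the controls and 2941, 3230, 2571 and 2167 in IRKO, a log2 change of 1.04 ± 0.158 (SE; limma adjusted p = 0.00057). The groups did not overlap in either gene, and within IRKO the Scn8a values of replicates 1 and 2 were the highest. Scn3a, which is used most in developing brain, rose less, from 121 and 114 to between 177 and 227 (log2 change 0.73, limma adjusted p = 0.00479). Scn3a turned to −0.0894 in the neuron scaling (0.13 without control replicate 1), where Scn2a (0.23) and Scn8a (0.21) stayed above 0 without passing the test. In the microglia scaling all 3 lay below 0 (−0.32, −0.34 and −0.64 for Scn2a, Scn8a and Scn3a).

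Scn7a, a sodium-sensing channel of glia and non-myelinating Schwann cells, was low in every library. It read 15.7 and 17.4 in the controls and 31.7, 32.5, 58.3 and 29.2 in IRKO, with the highest value in IRKO replicate 3. Its log2 change of 1.09 ± 0.352 (SE) passed at a limma adjusted p of 0.0257, and the call was lost without control replicate 1 (0.106) and without control replicate 2 (0.0716). Scn9a, a channel of pain-sensing neurons, read 3.37 and 5.81 against 11.9, 7.89, 10.7 and 22.4 and did not pass (log2 change 1.29, limma adjusted p = 0.0725). Only IRKO libraries brought it through the filter on low values, so its place in the class median rests on the group where it is higher.

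A further 3 pore-forming sodium channel genes did not pass the filter. Scn10a and Scn11a, both of pain-sensing neurons, reached at most 7.89 and 7.77 normalized counts, and Scn4a, the channel of skeletal muscle, at most 2.97. Scn4a and Scn11a had 0 reads in both controls, with 5 and 15 reads over the 4 IRKO libraries.

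Sodium channel beta subunits, cell-adhesion-like proteins that sit beside the pore, rose on the deposited scale, with a class median log2 change of 0.82 that was −0.00271 in the neuron scaling and −0.56 in the microglia scaling. Scn2b, one of the pair that bind the pore through a disulfide bond, read 894 and 923 against 1578, 1657, 1966 and 1515 (log2 change 0.88, limma adjusted p = 0.000418).

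Scn4b, the other of that pair and a promoter of resurgent sodium current, read 991 and 1078 in the controls and 1386, 1327, 1980 and 1890 in IRKO. IRKO replicates 3 and 4 were the higher ones, the reverse of the order seen in Scn8a. Its log2 change of 0.65 ± 0.178 (SE) had a limma adjusted p of 0.0128 and was lost without control replicate 1 (0.0797). Scn3b read 398 and 528 against 700.3 to 857, at a log2 change of 0.76 (limma adjusted p = 0.00244). In the neuron scaling Scn4b (−0.18) and Scn3b (−0.0597) lay below 0, and neither passed the test there. The mix of beta subunits overlapped between the groups.

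On the deposited scale 4 of 5 sodium channel neighbours on chromosome 2 and a pair on chromosome 9 were higher. So were Scn8a (log2 change 1.04) and Scn3b (0.76), which lie elsewhere. Of the 35 tested members 23 rose, where 26.6% of all genes tested did. All of the neighbours on chromosome 2 lay below 0 in the microglia scaling. Scn3a, Scn2a, Scn1a, Scn9a and Scn7a lie in this order within 1328 kb of chromosome 2 (65457118 to 66784910, RefSeq on GRCm38.p6), and 4 of the 5 rose, Scn9a being the one that did not pass. Scn2b and Scn4b lie within 36.3 kb of chromosome 9 (45117876 to 45154155), and both rose. Scn10a and Scn11a, which lie close together elsewhere on chromosome 9, did not pass the filter. Paralogs of this kind are similar in their coding sequence, and how reads that fit more than 1 of them were assigned is not stated in the sources used here.

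The calcium channels of presynaptic terminals rose on the deposited scale, lay below 0 in the microglia scaling, and had a direction in the neuron scaling that turned with 1 control library. Cacna1a, the P/Q-type pore that couples most central synapses to release, read 448 and 341 normalized counts in the controls and 551, 608, 522 and 671 in IRKO. Cacna1b, the N-type pore, read 282 and 193 against 335, 418, 397 and 488, and Cacna1e, the R-type pore, read 929 and 782 against 1168, 1398, 1136 and 1307. All 3 passed without overlap, at log2 changes of 0.58, 0.80 and 0.55 (limma adjusted p = 0.0109, 0.0073 and 0.00609), and all 3 lay below 0 in the neuron scaling (−0.24, −0.0274 and −0.28) and in the microglia scaling (−0.79, −0.58 and −0.83). The control replicates were apart, and without control replicate 2 none of the 3 passed limma's test (adjusted p = 0.116, 0.0791 and 0.0681 in the same order). In the neuron scaling the 3 stood at 0.13, 0.42 and 0.0247 without control replicate 1 and at −0.61, −0.48 and −0.57 without control replicate 2, with no call in either. The proportions among them overlapped between the groups, with Cacna1a at 26.4 ± 0.765% (SD, n = 2) of the summed count in control libraries against 26.1 ± 1.04% (SD, n = 4).

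L-type pores, which couple activity to gene expression and set pacemaking, passed in 1 of 3 cases on the deposited scale, with a median log2 change of 0.48 that was −0.34 in the neuron scaling and −0.89 in the microglia scaling. Cacna1c, the main L-type pore of brain and heart, read 200.2 and 267 in the controls and 238, 335, 297 and 462 in IRKO, and the groups overlapped (log2 change 0.48, limma adjusted p = 0.123). Cacna1d, which opens at lower voltages, read 242 and 280 against 330, 362, 295 and 453 and narrowly missed the threshold (log2 change 0.45, limma adjusted p = 0.0588), passing without IRKO replicate 3 (0.0321) and under quantile normalization (0.0301). Cacna1c passed without IRKO replicate 1 (0.0374). Cacna1s, the voltage sensor of skeletal muscle, read 13.5 and 17.4 against 27.7, 36.5, 29.1 and 25.3 and passed at an adjusted p of 0.0384, a call that was lost with DESeq2 (0.103) and without control replicate 1 or 2 (0.186 and 0.0666) or IRKO replicate 1, 2 or 3 (0.0636, 0.0975 and 0.0625). Cacna1f, the retinal L-type pore, did not pass the filter, with at most 7.77 normalized counts. Of 14 striated muscle genes 7 were tested, and 2 of them rose and none fell. The 2 are 28.6% of those tested, near the 26.6% of all genes that rose. Log2 changes of the 5 that did not pass ran from −0.43 (Mylpf) to 1.53 (Ttn). Acta1 read 56.2 and 80.4 in the controls and 162 to 229 in IRKO, and Myh7 read 219 and 194 against 296 to 373, while Ckm reached at most 5.94 and Myh4 at most 1.98 normalized counts. The part of muscle-type RNA in the values of Cacna1s was not tested.

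The T-type pores, which open near the resting potential and support burst firing, split on the deposited scale: 2 of 3 rose, and all 3 lay below 0 in the neuron and microglia scalings. Cacna1g, the T-type pore of thalamic relay neurons, read 285 and 308 in the controls and 409, 479, 456 and 566 in IRKO (log2 change 0.68 ± 0.149, SE; limma adjusted p = 0.0042). Cacna1i read 540 and 688 against 885, 1013, 824 and 798 (log2 change 0.52, limma adjusted p = 0.0131), and its call was lost without control replicate 1 (0.14). Cacna1h, the third T-type gene, read 289 and 288 against 218, 268, 323 and 389, on both sides of the controls, with a log2 change of 0.021 ± 0.214 (SE; limma adjusted p = 0.941). Cacna1h lay at −0.80 in the neuron scaling, with a limma adjusted p of 0.0138 that rose to 0.134 without control replicate 1, while Cacna1g (−0.15) and Cacna1i (−0.30) did not pass. Its share of the T-type sum was 26.0% and 22.4% in the controls and 14.4 to 22.2% in IRKO.

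Alpha2delta subunits, extracellular proteins that carry calcium channels to the membrane and include the targets of gabapentin, diverged more than any pore class. Cacna2d1 read 585 and 663 in the controls and 1752, 1756, 1219 and 1127 in IRKO. All 4 IRKO values were above the controls, with replicates 1 and 2 the highest, and the log2 change was 1.20 ± 0.198 (SE; limma adjusted p = 0.000855), or 0.38 in the neuron scaling and −0.17 in the microglia scaling, with no call in either. Cacna2d2, a further gabapentin-binding member, went the other way, at 528 and 373 in the controls and 116, 210.0, 228 and 177 in IRKO. Its log2 change was −1.32 ± 0.269 (SE; limma adjusted p = 0.0028), with −2.14 in the neuron scaling and −2.70 in the microglia scaling.

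Cacna2d3 rose from 322 and 340 to 492, 481, 540 and 538 (log2 change 0.63, limma adjusted p = 0.00183), and stood at −0.19 in the neuron scaling and −0.75 in the microglia scaling. Cacna2d4, which is best known from photoreceptors, read 51.7 and 51.3 in the controls and 20.8, 23.7, 47.6 and 18.5 in IRKO. Only IRKO replicate 3 came near the controls; the log2 change of −0.98 ± 0.390 (SE) had a limma adjusted p of 0.058, or 0.00852 without that replicate, and in the neuron scaling it was −1.80 (limma adjusted p = 0.000835). Cacna2d4 holds Lrtm2 within its span, over 17138 bp on chromosome 6, and Lrtm2 itself had a log2 change of −1.14 (limma adjusted p = 9.04e-05). Without a stated strand setting, reads of the 2 genes cannot be told apart over that stretch.

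The make-up of the alpha2delta class therefore differed between the groups. Cacna2d1 gave 42.9 ± 5.03% (SD, n = 2) of the class's summed normalized count in control libraries against 66.3 ± 7.06% (SD, n = 4), and Cacna2d2 gave 30.8 ± 6.64% and 8.53 ± 2.69%. Neither share overlapped between the groups. Shares within a library do not depend on how libraries are scaled, but they weigh genes by transcript length as well as by abundance.

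Calcium channel beta subunits, cytoplasmic proteins that bind the pore and shield it from degradation, all rose on the deposited scale, with a median log2 change of 0.90 that was 0.0797 in the neuron scaling and −0.47 in the microglia scaling. Cacnb4, whose loss causes the epilepsy and ataxia of the lethargic mouse, had the largest rise of the 35 genes on the deposited scale. It read 1405 and 1656 in the controls and 5173, 5372, 3958 and 3720 in IRKO. Every IRKO value was more than double both controls, and replicates 1 and 2 were again the highest. The fold was 2.95 (log2 change 1.56 ± 0.172, SE; limma adjusted p = 8.63e-05). It was also the only member that rose in the neuron scaling, at 0.74 (limma adjusted p = 0.00466), where 3.1% of all genes tested rose, and it stood at 0.18 in the microglia scaling without passing (limma adjusted p = 0.491). Cacnb4 is strongly used in cerebellum; Gabra6, Cbln3, Pcp2 and Ppp1r17 were near 0 while Neurod1 (log2 change 1.93), Calb1 (1.33), Cbln1 (1.12) and Itpr1 (1.01) of the same lists rose with it, and the part of cerebellar RNA in its rise was not tested.

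Cacnb2 read 188 and 157 in the controls and 347, 404, 380 and 355 in IRKO (log2 change 1.11 ± 0.141, SE; limma adjusted p = 0.000195). Cacnb3, the beta subunit most tied to N-type channels, read 1592 and 2049 against 2735, 3145, 3017 and 2865 (log2 change 0.70, limma adjusted p = 0.00164). Cacnb1 read 871 and 929 against 1117, 1515, 1311 and 1188 (log2 change 0.50, limma adjusted p = 0.0125), and lost its call without control replicate 1 (0.0818). None of these 3 groups of values overlapped, and in the neuron scaling Cacnb2 lay above 0 (0.28) and Cacnb3 (−0.12) and Cacnb1 (−0.32) below, none passing the test. Cacnb1 overlaps the ribosomal protein gene Rpl19 by 1032 bp on chromosome 11, whose mean normalized count was 11025 in control libraries and 9804 in IRKO, and the part of shared reads in Cacnb1 was not tested. Cacnb4 gave 34.6 ± 0.0615% (SD, n = 2) of the beta subunit sum in control libraries against 49.5 ± 4.65% (SD, n = 4), and the shares of Cacnb3 and Cacnb1 were lower in each IRKO library than in both controls.

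**Figure D2:**
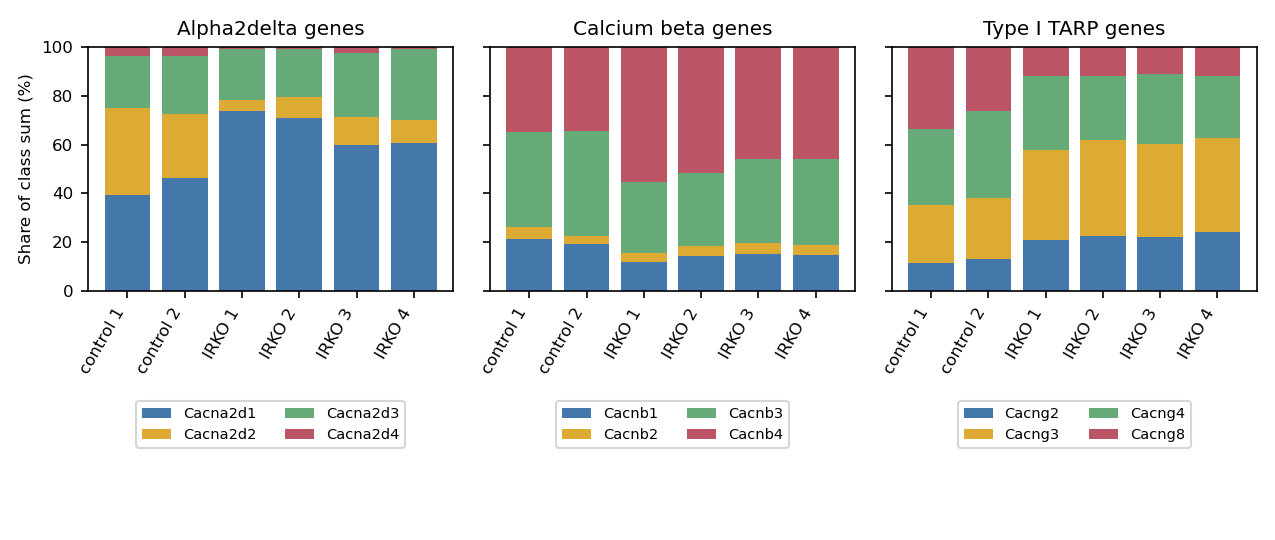
Share of each gene in the summed normalized count of its class, in percent, for the alpha2delta, calcium channel beta and type I TARP genes; each bar is 1 library. Cacna2d1, Cacnb4, Cacng2 and Cacng3 take a larger share in all 4 IRKO libraries than in both controls, and Cacna2d2 and Cacng8 a smaller one, whatever the scaling between libraries.

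The gamma family divides into muscle-type subunits and TARPs. Type I TARPs bind AMPA receptors, slow their closing and anchor them at synapses. On the deposited scale 2 of the 4 rose and 1 fell. Cacng2, the stargazin gene, read 258 and 323 in the controls and 481, 600.3, 696 and 642 in IRKO (log2 change 1.05 ± 0.170, SE; limma adjusted p = 0.000774). Cacng3, a TARP of cortex, read 525 and 606 against 836, 1046, 1197 and 1032 (log2 change 0.85, limma adjusted p = 0.00132). Both were above the controls in all 4 IRKO libraries. Neither passed in the neuron scaling (0.23 and 0.0285) or in the microglia scaling (−0.32 and −0.52).

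Cacng8, the TARP most abundant in hippocampus, was the reverse. It read 746 and 637 in the controls and 274, 311, 346 and 318 in IRKO, a narrow range well under both controls. Its log2 change was −1.15 ± 0.139 (SE; limma adjusted p = 0.000147), with −1.97 in the neuron scaling and −2.52 in the microglia scaling. Cacng4, a TARP of immature neurons and glia, read 700 and 862 against 693, 700, 892 and 674, with a log2 change of −0.0792 ± 0.150 (SE; limma adjusted p = 0.675). It lay at −0.90 in the neuron scaling (limma adjusted p = 0.000706), and its direction turned on the deposited scale under quantile normalization (0.10) and without control replicate 2 (0.0709), with no call in either. Together these changes moved the type I sum from 29.9 ± 5.11% (SD, n = 2) Cacng8 in control libraries to 11.7 ± 0.431% (SD, n = 4) in IRKO, and from 24.3 ± 0.980% to 38.2 ± 1.19% Cacng3.

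Type II TARPs, which tune AMPA receptors but traffic them less, did not pass on the deposited scale. Cacng7 read 2349 and 1911 in the controls and 1818, 1962, 2533 and 2750 in IRKO (log2 change 0.0753 ± 0.182, SE; limma adjusted p = 0.744). Cacng5 read 129 in control replicate 1 and 637 in control replicate 2, with 194, 202.1, 176 and 284 in IRKO. A single control library thus set its direction: the log2 change of −0.45 ± 0.504 (SE; limma adjusted p = 0.473) became −1.59 (limma adjusted p = 0.00176) without control replicate 1 and 0.70 (limma adjusted p = 0.0648) without control replicate 2. Both fell in the neuron scaling, Cacng7 to −0.75 (limma adjusted p = 0.00993) and Cacng5 to −1.27 (limma adjusted p = 0.00835). The first call was lost without control replicate 1 (limma adjusted p = 0.207) and the second without control replicate 2 (0.484). The 13 blood and liver transcripts summed to 239113 normalized counts in control replicate 2, 79776 in control replicate 1 and 2815 to 12529 in IRKO, and their relation to Cacng5 was not tested.

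Of the muscle-type subunits, Cacng6 read 10.1 and 18.4 in the controls and 20.8, 29.6, 15.5 and 44.8 in IRKO (log2 change 0.86 ± 0.470, SE; limma adjusted p = 0.147). Cacng1 did not pass the filter, at 0.968 to 5.83 normalized counts. Cacng7, Cacng8 and Cacng6 lie in this order within 103.6 kb of chromosome 7 (3332027 to 3435667). Cacng8 alone of these neighbours fell on the deposited scale, where neither Cacng7 nor Cacng6 passed.

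**Figure D3:**
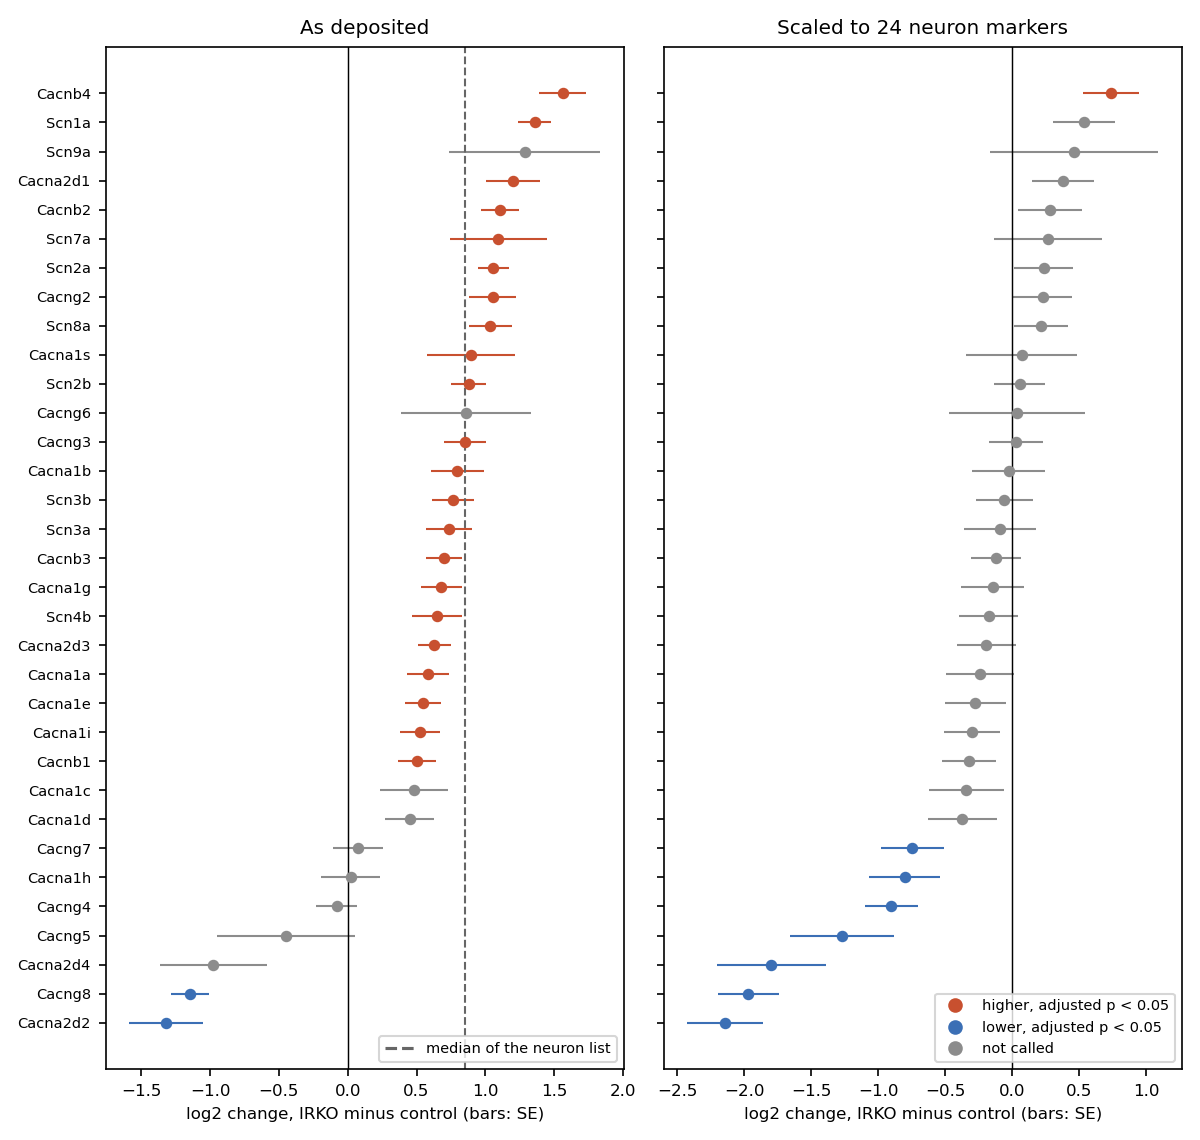
Log2 change (IRKO minus control, points with SE bars, n = 2 against 4) of 33 tested genes as deposited (left) and with libraries scaled to an equal mean log2 of 24 neuron markers (right); colour marks limma calls at an adjusted p under 0.05 and the dashed line the median of the neuron markers (0.85). On the left 22 of the drawn genes rose and 2 fell, and on the right Cacnb4 alone rose and 7 genes fell.

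Scaling to the neuron markers left most channel genes near 0. In it 27 of the 35 did not pass limma's test, Cacnb4 rose, and Cacna2d2, Cacng8, Cacna2d4, Cacng5, Cacng4, Cacna1h and Cacng7 fell. The 7 falls are 20% of the members, where 58.6% of all genes tested fell in that scaling. Leaving out each library in turn gave 1 to 3 rises and 5 to 7 falls. The added rises were Scn1a without control replicate 1, and Scn1a and Cacna2d1 without IRKO replicate 3. Cacnb4 passed in all 6 of those fits, as did the falls of Cacna2d2, Cacng8, Cacna2d4 and Cacng4.

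Measured as class sums over the summed neuron markers, the log2 difference between the groups was 0.25 for sodium pores, 0.22 for calcium beta subunits and 0.056 for sodium beta subunits. It was −0.22 for the P/Q, N and R pores, −0.33 for L-type pores, −0.36 for T-type pores and −0.25 for alpha2delta subunits. It was lowest for the TARPs, at −0.63 for type I and −0.86 for type II. The type I ratio lay lower in each of the 4 IRKO libraries (log2 −6.02 to −5.57) than in both controls (−5.01 and −5.32), and the same held for type II (−6.21 to −5.38 against −4.86 and −5.26). The sodium pore ratio did so in neither direction, with the lower control at −5.50 and the higher at −5.08, beside −5.21 to −4.96 in IRKO.

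Astrocyte markers moved with the groups in the direction of the 2 falls. Log2 changes of the 20 astrocyte markers ran from −5.21 to −2.69 around a median of −4.11, so that the falls of Cacna2d2 (−1.32) and Cacng8 (−1.15) were smaller than that of any marker in the list. The part of astrocyte RNA in the falls was not tested. Among neuron types, 8 of 8 markers of forebrain excitatory neurons rose (median 1.13), while of 8 markers of striatal projection neurons 2 rose and 1 fell (median 0.19). Of 12 oligodendrocyte markers 7 were higher and 1 lower, and of 11 precursor markers 4 were higher and 3 lower. All of these are on the deposited scale, where 26.6% of all genes tested rose and 29% fell. In the microglia scaling the medians of the excitatory, striatal, oligodendrocyte and precursor lists were −0.25, −1.18, −0.52 and −0.78. In the neuron scaling they were 0.30, −0.63, 0.0347 and −0.23.

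**Figure D4:**
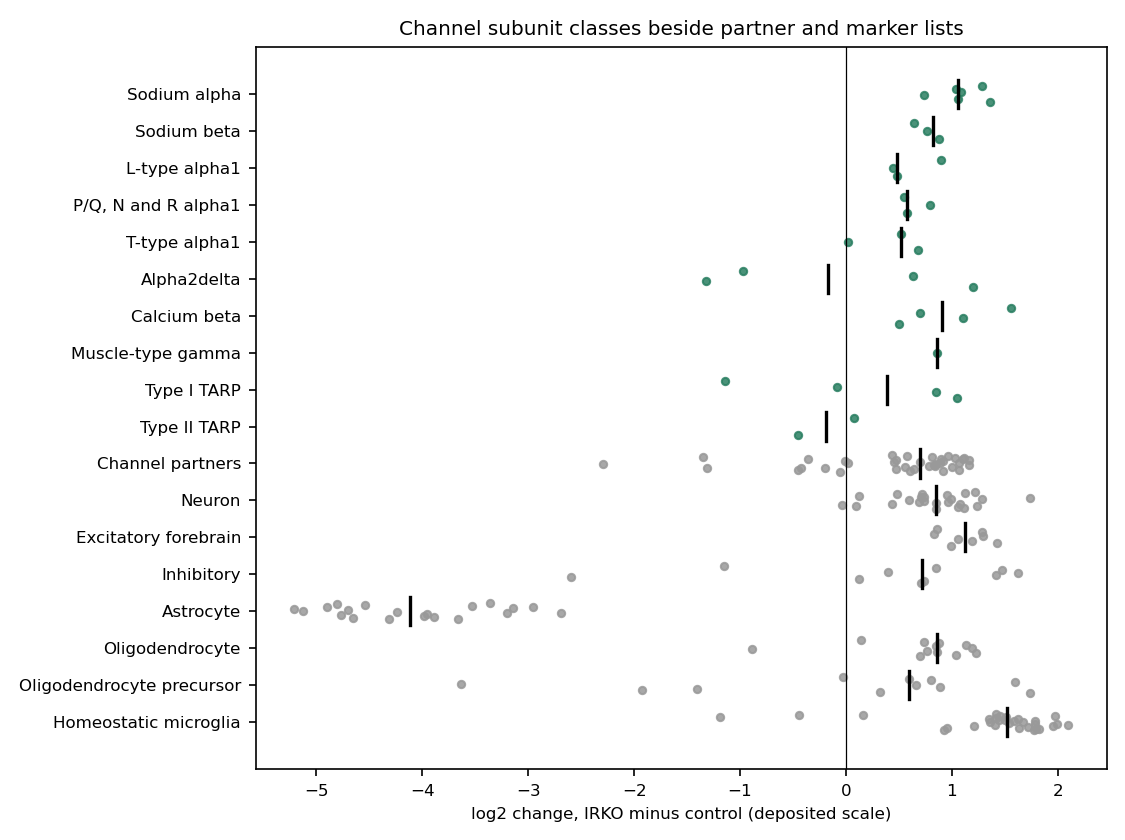
Log2 change (IRKO minus control, deposited scale) of tested genes, by channel subunit class (green) and by list of channel partners or cell type markers (grey); black bars are medians over each full list. All 10 class medians lie above the astrocyte median (−4.11) and below the microglia median (1.52), running from −0.19 for type II TARPs to 1.06 for sodium alpha genes beside 0.85 for the neuron markers; scaled to the microglia markers, the medians of all channel classes lie below 0.

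Proteins that anchor, tune or work with these channels were counted from a list of 37 genes, all of them tested. As deposited, 23 rose and 4 fell (26.6% and 29% of all genes), with a median log2 change of 0.70. In the neuron scaling none rose and 10 fell (3.1% and 58.6% of all genes). In the microglia scaling none rose and 21 fell (0.537% and 77.9% of all genes). Unc80, a subunit of the sodium leak channel complex, read 659 and 589 in the controls and 1260 to 1556 in IRKO (log2 change 1.16, limma adjusted p = 9.59e-05). Rimbp2, which ties presynaptic calcium channels to the release machinery, read 439 and 430 against 848 to 1088 (log2 change 1.07, limma adjusted p = 0.000165). Nrcam, an adhesion protein that clusters sodium channels at nodes and is also made by glia, read 4682 and 4121 against 1659 to 1924 (log2 change −1.31, limma adjusted p = 1.97e-05). Gem, a small GTPase that binds calcium channel beta subunits and lowers calcium current, read 146 and 181 against 29.7 to 36.0 (log2 change −2.29, limma adjusted p = 4.29e-05).

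The AMPA receptor subunits that TARPs bind were in the same list. Gria2, which limits calcium flow through the receptor, read 1584 and 1759 in the controls and 3294 to 4158 in IRKO (log2 change 1.1, limma adjusted p = 0.000121). Gria3 and Gria4, chosen after their values were seen, rose by 0.90 and 1.12 (limma adjusted p = 0.000545 and 0.000252). Gria1 and Shisa9, another AMPA receptor auxiliary, were chosen in the same way and lay at −0.36 and −1.35 (limma adjusted p = 0.0625 and 9.32e-05). Gria2, Gria3 and Gria4 did not pass in the neuron scaling, where Gria1 (−1.18) and Shisa9 (−2.17) fell. Rest, a repressor known to silence sodium channel genes outside neurons, read 161 and 142 in the controls and 188 to 217 in IRKO. Its log2 change was 0.43 (limma adjusted p = 0.0321), and −0.39 in the neuron scaling without passing. In the microglia scaling Rest (−0.94), Gria3 (−0.48), Gria1 (−1.73) and Shisa9 (−2.73) fell, while Gria2 (−0.27) and Gria4 (−0.26) did not pass.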

How the data were processed

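Ribosome-bound mRNA of 2 control and 4 IRKO precipitates was sequenced on a DNBSEQ platform. Reads were handled with Bowtie2 and the build GRCm38.p6, per the submitters' processing notes; the sources used here name no counting tool, annotation or strand setting. Each value the authors deposited is a normalized signal; from the values themselves it is a read count over a size factor for that library, since 100% gave whole reads within 0.05 once divided by the value of 1 read. The main test was limma 3.58.1 (R 4.3.3) on log2(value + 1), a pseudocount that understates changes of low genes, with a mean-variance trend, over the 14698 genes with at least 10 in at least 2 samples, adjusted by Benjamini-Hochberg over all of them. EdgeR 4.0.16 and DESeq2 1.42.0 were run on the recovered reads; edgeR called 3836 genes higher and 4232 lower, DESeq2 3845 and 4148. In IRKO replicate 1 a single read is worth 0.991, close to 1, although 100% of its values gave whole reads. EdgeR was also run without that library.

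Microglia and neuron scalings set the mean log2 of 30 and 24 markers equal between libraries. Other alternatives were pseudocounts of 0.5 and 5, no filter, a filter at 50, TMM, quantile normalization, no trend, a replicate block and leaving out each sample; leaving out samples in the neuron scaling and the 5-sample edgeR fit were added after seeing the data. Fits were tested on simulated data. Genes named were the members, with full values in each class for the 2 smallest adjusted p in each direction and the highest mean, and in the partner list the 3 smallest p among rises, the 2 among falls, and Rest. Members and lists were chosen with earlier results of these data known. A planned permutation test of class sums is not given, because it would score genes chosen in that knowledge. For 2 members results are not reported here by name; they stay in the fits and counts.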

Additional observations from a re-analysis of the deposited data

Results flagged for a closer look

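Within the 4 IRKO libraries, 45 sets of values were examined for a single library far from the others (35 genes and 10 class sums), and 2 stood out, where chance flags about 1 in 20. Scn7a read 58.3 normalized counts in IRKO replicate 3, with the next value at 32.5 and the lowest at 29.2. Cacng4 read 892 in the same library, with the next value at 700 and the lowest at 674.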

How the results depend on the processing

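Counts of higher and lower channel genes were 20 to 25 and 2 to 3 with the other pseudocounts, filters, TMM, quantile normalization, no trend, the replicate block, edgeR with all or 5 samples and DESeq2, and 18 to 24 and 2 to 3 when each library was left out, against 23 and 2. Scaling to the microglia markers gave 0 and 20 with a median of −0.64, and scaling to the neuron markers 1 and 7 with a median of −0.0894. The median otherwise ranged from 0.63 to 0.77, and from 0.67 to 0.78 when each library was left out. Under the replicate block 20 rose and 3 fell; the control and IRKO replicates share only a number (deviations correlated at −0.0824 and 0.079). Log2 changes that turned sign in the microglia scaling were Scn1a −0.018, Scn2a −0.32, Scn3a −0.64, Scn7a −0.28, Scn8a −0.34, Scn9a −0.091, Scn2b −0.50, Scn3b −0.61, Scn4b −0.73, Cacna1c −0.89, Cacna1d −0.93, Cacna1s −0.48, Cacna1a −0.79, Cacna1b −0.58, Cacna1e −0.83, Cacna1g −0.70, Cacna1h −1.36, Cacna1i −0.85, Cacna2d1 −0.17, Cacna2d3 −0.75, Cacnb1 −0.87, Cacnb2 −0.27, Cacnb3 −0.68, Cacng6 −0.52, Cacng2 −0.32, Cacng3 −0.52, Cacng7 −1.30. Those that turned in the neuron scaling were Scn3a −0.0894, Scn3b −0.0597, Scn4b −0.18, Cacna1c −0.34, Cacna1d −0.37, Cacna1a −0.24, Cacna1b −0.0274, Cacna1e −0.28, Cacna1g −0.15, Cacna1h −0.80, Cacna1i −0.30, Cacna2d3 −0.19, Cacnb1 −0.32, Cacnb3 −0.12, Cacng7 −0.75. Cacna1h (−0.25) and Cacng7 (−0.17) turned under the replicate block and Cacng4 (0.10) under quantile normalization, none of them called there. When each library was left out, the log2 changes that turned had these ranges: Cacng4 −0.23 to 0.0709, Cacng5 −1.59 to 0.70, Cacng7 −0.0732 to 0.22, Cacna1h −0.12 to 0.16. The log2 difference of class sums on the deposited scale was 1.07 for sodium pores, 0.88 for sodium beta, 0.49 for L-type pores, 0.60 for P/Q, N and R pores, 0.47 for T-type pores, 0.58 for alpha2delta, 1.05 for calcium beta, 0.96 for muscle-type gamma, 0.20 for type I TARPs, −0.0392 for type II TARPs. Over the summed microglia markers, where Cst3 weighs most, it was 0.63 for sodium pores, 0.44 for sodium beta, 0.0517 for L-type pores, 0.16 for P/Q, N and R pores, 0.0246 for T-type pores, 0.13 for alpha2delta, 0.60 for calcium beta, 0.52 for muscle-type gamma, −0.25 for type I TARPs, −0.48 for type II TARPs. Over the neuron markers, leaving out each library gave 0.0359 to 0.45 for sodium pores, −0.12 to 0.23 for sodium beta, −0.54 to −0.23 for L-type pores, −0.61 to 0.16 for P/Q, N and R pores, −0.47 to −0.24 for T-type pores, −0.50 to −0.000754 for alpha2delta, 0.12 to 0.32 for calcium beta, −0.17 to 0.34 for muscle-type gamma, −0.78 to −0.47 for type I TARPs, −1.06 to −0.67 for type II TARPs. In the neuron scaling 1 to 3 genes rose and 5 to 7 fell when each library was left out. Causes of these differences were not tested, and neither was the effect of depth. In the controls, reads were fewest for the 5 genes under the filter and Scn9a. Cacng6, Cacna1s and Scn7a were also low, with 28, 30 and 32 reads over both controls.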
